A study of Capra hircus with 6 samples.

Results

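Platelets are small blood cells without a nucleus that megakaryocytes of the bone marrow shed, carrying a stock of their RNA. They settle close to mononuclear cells in a density gradient and stick to monocytes, so platelet RNA is a usual passenger of peripheral blood mononuclear cell (PBMC) preparations. At a wound, platelets bind collagen and von Willebrand factor through surface glycoproteins, link to each other over fibrinogen through the integrin αIIbβ3, and empty granules of chemokines and clotting factors. The 10 platelet genes followed here were given as a list of symbols, *PF4*, *PPBP*, *ITGA2B*, *ITGB3*, *GP9*, *TUBB1*, *TREML1*, *GP6*, *SELP* and *F13A1*, and 9 of them are among the 24779 genes of the count table. *PF4*, the platelet factor 4 chemokine, is not listed there under that symbol and has no value here. All 9 others passed the filter on low counts in each comparison below.

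PBMCs came from goat kids (*Capra hircus*) that drank doe's milk (control, libraries Doe-1 to Doe-3) or milk replacer (test, libraries Repl-1 to Repl-3), 3 libraries for each feed. The labels call the libraries biological replicates and give no age, breed or sex, and nothing there says whether cells of several kids were pooled. Total counts ran from 25023210 to 57204363 per library. They were of 2 kinds, each found under both feeds. For Doe-1, Doe-2 and Repl-1 counts followed transcripts (Spearman correlation with the genomic length of the gene, introns included, 0.370 to 0.383 across genes), and in Doe-3, Repl-2 and Repl-3 they followed that length (0.892 to 0.896). The former are called transcript-like and the latter span-proportional. The labels give RNA for all 6. Whether the counts of the span-proportional libraries come from RNA, and whether the nearly alike Repl-2 and Repl-3 are separate samples, was not tested, so CPM there is a scaled count and is not read as expression. Levels are given as CPM, the usual scaling of a count to its library total. Transcript lengths were not available, so levels are compared between libraries and not between genes.

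The platelet label rests on the levels in the transcript-like libraries, where platelet-restricted members were present: *TUBB1* at 406 to 648 CPM, *GP9* at 24.9 to 31.0 CPM and *ITGA2B* at 14.2 to 24.1 CPM. *SELP* was the lowest member there, at 1.73 to 1.85 CPM. Set against the other kind of library, *TUBB1*, the β-tubulin particular to megakaryocytes and platelets, *GP9*, *ITGA2B*, *PPBP*, *TREML1* and *F13A1* were each higher in all 3 transcript-like libraries than in any span-proportional one. That is 6 of 9 members, or 66.7%, and 23.7% of the 23612 genes with any count did the same. Genes of other blood cells did so too, such as the B cell gene *CD79A* at 526 to 714 against 1.40 to 1.47 CPM, so this contrast is no check of the platelet label. *SELP* was lower in all 3 (1 of 9 members, 11.1%, against 57.9% of genes), and *ITGB3* and *GP6* overlapped between the kinds. The summed level of the 9 genes was 840, 1204 and 1008 CPM in Doe-1, Doe-2 and Repl-1, and 350, 295 and 294 CPM in Doe-3, Repl-2 and Repl-3.

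**Figure D1:**
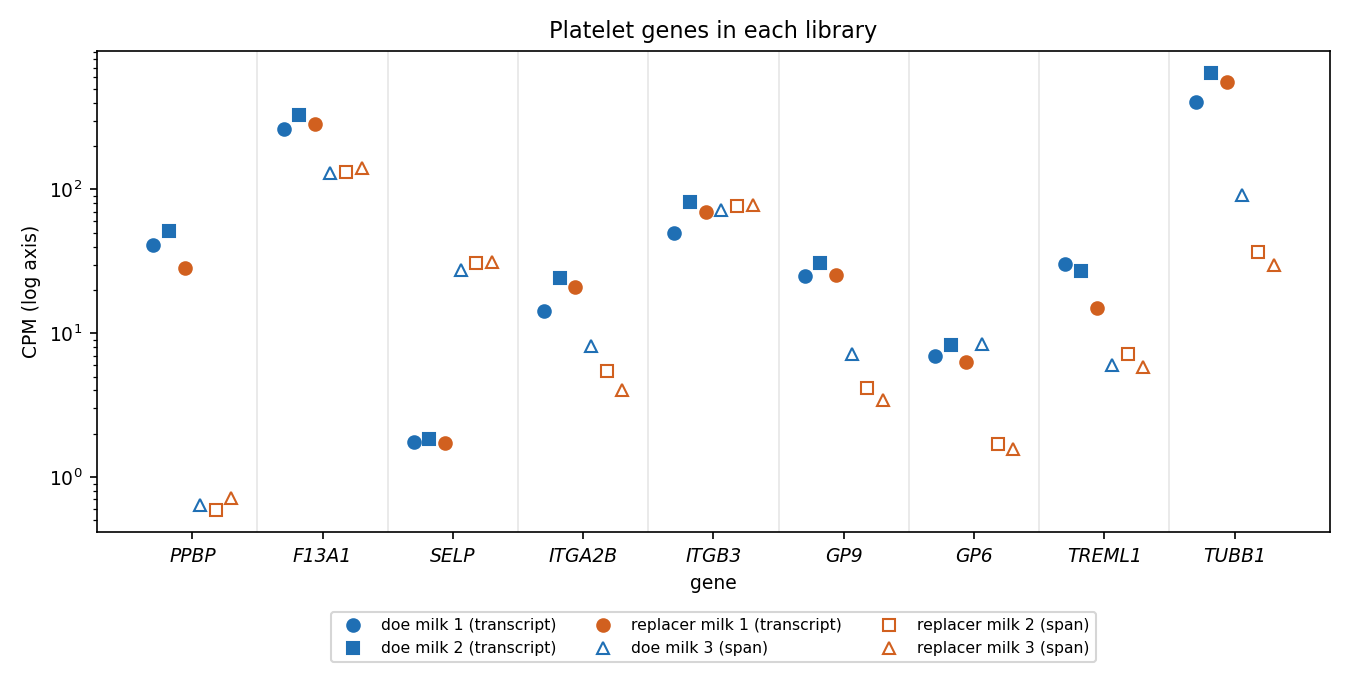
CPM (log axis) of the 9 platelet genes in each of the 6 libraries. Filled symbols are transcript-like libraries, open symbols span-proportional ones, blue is doe's milk, orange is milk replacer, and each symbol is 1 library. Among filled symbols *PPBP* (28.3 CPM) and *TREML1* (14.9 CPM) in Repl-1 lie under both doe-milk libraries, while *TUBB1*, *ITGA2B* and *ITGB3* lie between them.

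The comparison of the feeds among transcript-like libraries sets Doe-1 and Doe-2 against Repl-1. No platelet gene passed it. *TREML1* and *PPBP* stood lowest in Repl-1, at 0.522 and 0.613 times the doe-milk mean, whereas *TUBB1*, *ITGA2B*, *ITGB3* and *F13A1* lay between the doe-milk libraries. The test was edgeR's quasi-likelihood test over 17356 genes with Benjamini-Hochberg adjustment, in which a gene is called below an adjusted p of 0.05. It called 3 genes (0.0173%) and 0 members, and 929 genes (5.35%) had an unadjusted p below 0.05, *PPBP* and *TREML1* among them. The 3 called genes have no symbol in the table and are named here after their values were seen: LOC102181554 and LOC102186914 fell (log2 fold changes −7.09 and −3.42, edgeR adjusted p = 0.00651 and 0.0359) and LOC108637289 rose (3.40, adjusted p = 0.0359). DESeq2 called 148 genes and limma voom 0, with 0 members in either. The replacer-milk side is a single library, assumed to vary like the doe-milk pair, which leaves 1 residual degree of freedom. In these bulk samples fewer platelets and less RNA per platelet cannot be told apart.

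Granule contents came first. *PPBP* encodes pro-platelet basic protein, the precursor of a neutrophil-attracting chemokine stored in α-granules. It stood at 41.3 CPM (exact 95% interval 39.5 to 43.2) in Doe-1, 51.0 (49.2 to 52.9) in Doe-2 and 28.3 (26.9 to 29.8) in Repl-1. Repl-1 was lowest and its counting interval touched neither of the others (log2 fold change −0.82, edgeR adjusted p = 0.761, SE 0.25). Counting intervals cover counting error only, and the doe-milk libraries differed from each other by more than their intervals as well.

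*F13A1* encodes the A chain of coagulation factor XIII, which cross-links fibrin, and is also made by monocytes. Its level was 264 and 331 CPM in Doe-1 and Doe-2 and 287 CPM in Repl-1, which therefore lay inside the doe-milk range (log2 fold change −0.16, edgeR adjusted p = 0.979, SE 0.23). The monocyte list fixed beside it, of which 7 of 11 genes are in the table, summed to 443 and 410 against 440 CPM. Of these 7, 2 lay below both doe-milk libraries and 2 above, where 33.2% and 34.4% of all genes did. *C5AR1* was lower, at 146 and 120 against 89.7 CPM, and *CD14* higher, at 120 and 101 against 137 CPM. The part of monocytes in the *F13A1* level was not tested.

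*SELP* encodes P-selectin, the adhesion molecule of α-granule membranes that activated platelets bring to their surface to hold leukocytes, and endothelial cells make it too. With 84, 106 and 90 counts, its levels were 1.75, 1.85 and 1.73 CPM in Doe-1, Doe-2 and Repl-1. These are nearly level, and the fold change was as small as its error was wide (log2 fold change −0.17, edgeR adjusted p = 0.988, SE 0.48). The 9 endothelial markers were split, with 3 below both doe-milk libraries and 3 above, where 33.2% and 34.4% of all genes were. *CDH5*, the endothelial cadherin, was lower in Repl-1 (log2 fold change −1.02), at 1.08 and 1.89 against 0.790 CPM. *EMCN* was higher there (log2 fold change 1.03), with 0.333 CPM in Doe-1, 0.245 in Doe-2 and 0.636 in Repl-1. The whole list summed to 17.3 and 13.5 against 13.7 CPM.

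Among the surface receptors, the integrin chains *ITGA2B* (αIIb) and *ITGB3* (β3) form the fibrinogen receptor. *ITGA2B* was at 14.2 and 24.1 CPM in Doe-1 and Doe-2 against 20.9 CPM in Repl-1, and *ITGB3* at 50.1 and 81.5 against 69.1 CPM. Both were lowest in Doe-1, with replacer milk between the controls (log2 fold changes 0.013, SE 0.36, and −0.042, SE 0.34, edgeR adjusted p = 0.999 and 0.997). Their ratio hardly moved. *ITGA2B* had 0.284 (exact 95% interval 0.261 to 0.309), 0.296 (0.278 to 0.314) and 0.303 (0.283 to 0.324) counts for each count of *ITGB3* in Doe-1, Doe-2 and Repl-1, and the 3 intervals overlap.

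*GP9* encodes glycoprotein IX, a small subunit of the complex that catches von Willebrand factor. It stood at 24.9 and 31.0 CPM against 25.3 CPM, so that plain CPM put Repl-1 just above Doe-1. After TMM scaling, which removes differences in RNA composition between libraries, it lay just below both (log2 fold change −0.26, edgeR adjusted p = 0.979, SE 0.24). *GP6*, the collagen receptor that starts platelet activation, was at 6.97 and 8.23 against 6.34 CPM, a gap to Doe-1 that its counting intervals (6.24 to 7.76 and 5.67 to 7.06) do not separate (log2 fold change −0.37, edgeR adjusted p = 0.979, SE 0.33).

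*TREML1* encodes a receptor-like protein kept in platelet α-granules, which reaches the surface on activation. Its level was 30.1 and 26.9 CPM in Doe-1 and Doe-2 and 14.9 CPM in Repl-1. The doe-milk libraries lay close together and replacer milk well below them, and this was the member with the smallest p, 0.00376 before adjustment (log2 fold change −1.05, edgeR adjusted p = 0.536, SE 0.23). Over all alternatives tried its log2 fold change ran from −1.13 to −0.94 and its lowest adjusted p was 0.107. For *PPBP* the range was −0.97 to −0.66 and the lowest adjusted p 0.308.

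For the cytoskeleton, *TUBB1* builds the ring of microtubules that gives platelets their disc shape. It stood at 406 and 648 CPM in Doe-1 and Doe-2 and 555 CPM in Repl-1, inside the doe-milk range (log2 fold change −0.039, edgeR adjusted p = 0.997, SE 0.32).

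Set against each other, the members did not move as a block. Between the doe-milk libraries, which share a feed, 8 of 9 members were higher in Doe-2 (median log2 ratio 0.32 after TMM scaling), and *TREML1* alone was lower. Over all genes tested that median was 9.76e-05. Repl-1 was below Doe-2 for 9 of 9 members (median −0.35) and below Doe-1 for 5 of 9 (median −0.082). Of all genes tested, 50.7% were higher in Repl-1 than in Doe-2 and 50.4% higher than in Doe-1. For *ITGA2B*, *ITGB3*, *TUBB1* and *F13A1* the doe-milk libraries differed from each other by more than either did from Repl-1. *PPBP* stood apart, with log2 ratios of −0.64 and −0.95 to the doe-milk libraries against 0.32 between these. So did *TREML1*, with −1.10 and −0.95 against −0.15.

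By position, 5 of 9 members (*PPBP*, *GP9*, *TREML1*, *GP6*, *SELP*) lay below both doe-milk libraries and 0 above, where 33.2% of all genes lay below both and 34.4% above. The median log2 fold change of the members was −0.17, against −0.0057 over all genes tested. Both values changed with the control left out. Without Doe-2 the median was −0.093 and 5 members lay below and 4 above the remaining control, and without Doe-1 the median was −0.36 and 9 lay below. The shares above are for 2 controls. Set against single controls in the 3-library scaling, 50.4% of all genes were higher in Repl-1 than in Doe-1 and 50.7% than in Doe-2. With plain CPM the members' median was −0.054.

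**Figure D2:**
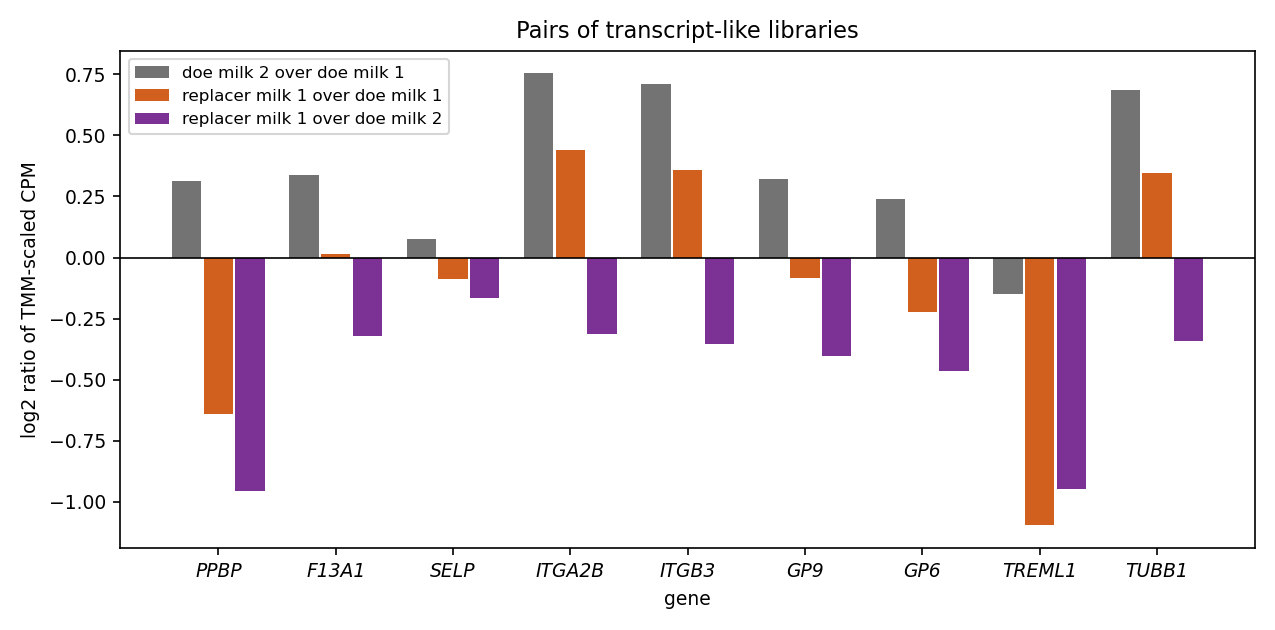
log2 ratios of TMM-scaled CPM between pairs of transcript-like libraries, for each platelet gene. Grey bars compare the doe-milk libraries (Doe-2 over Doe-1), orange and purple bars compare Repl-1 with Doe-1 and Doe-2. Orange and purple bars are both longer than the grey bar for *PPBP* (−0.64 and −0.95 against 0.32), for *TREML1* (−1.10 and −0.95 against −0.15) and, all of them short, for *SELP* (−0.089 and −0.17 against 0.077).

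Ratios within a library, which need no scaling, also set *PPBP* apart, and *TREML1* less clearly. *TUBB1* had 28.6 (exact 95% interval 26.5 to 30.9), 26.9 (25.5 to 28.4) and 26.5 (24.9 to 28.2) counts for each count of *ITGA2B* in Doe-1, Doe-2 and Repl-1. The 3 intervals overlap. Not every other ratio was steady. *GP9* had 1.75 (1.59 to 1.93), 1.28 (1.20 to 1.38) and 1.21 (1.11 to 1.31) counts for each count of *ITGA2B*, with Doe-1 above both others. For each count of *PPBP*, *TUBB1* had 9.84 (9.39 to 10.3), 12.7 (12.2 to 13.2) and 19.6 (18.6 to 20.7), and for each count of *TREML1* it had 13.5 (12.8 to 14.3), 24.1 (22.9 to 25.4) and 37.3 (34.8 to 40.2). Repl-1 was the highest in the latter ratios, and the doe-milk libraries differed from each other beyond counting error. On a log scale the *TREML1* ratio differed more between Doe-1 and Doe-2 than between Doe-2 and Repl-1.

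Other platelet genes, in 6 lists ordered by role, gave 0 calls among the 74 tested in the transcript-like libraries by the edgeR test above. DESeq2, and edgeR with no filter on low counts, called *GNG11*, described with the signalling genes. In the surface adhesion list 6 of 13 genes lay below both doe-milk libraries and 2 above, where 33.2% of all genes lay below and 34.4% above. The list had 9 of 13 genes with a negative fold change (median log2 fold change −0.14). That median was −0.44 over genes with at least 1 CPM in every library, −0.033 with plain CPM, −0.059 without Doe-1 and −0.22 without Doe-2. *GP1BA* and *GP5*, partners of *GP9* in the von Willebrand factor receptor, stood at 2.93 and 3.02 against 1.10 CPM (difference −1.55 on the log2 scale, SE 0.49) and at 3.18 and 2.88 against 1.77 CPM (−0.88, SE 0.46). The platelet surface protein *LY6G6F* stood at 81.8 and 106 against 51.7 CPM (−0.97, SE 0.25), and the tetraspanin *CD9* at 81.7 and 94.2 against 66.5 CPM (−0.51, SE 0.21). The edgeR adjusted p was at least 0.676 for each of these.

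Granule cargo went both ways, with 8 of 14 genes negative (median −0.11). Below both doe-milk libraries lay 6 and above both 5, where 33.2% and 34.4% of all genes did. The median turned to 0.0023 with plain CPM and to 0.045 without Doe-2. The metalloprotease inhibitor *TIMP1* stood at 745 and 867 against 532 CPM (difference −0.71 on the log2 scale, SE 0.21). *PDGFA*, a platelet-derived growth factor chain, stood higher at 6.91 and 7.36 against 15.1 CPM (0.97, SE 0.28). *SPARC*, a matrix-binding glycoprotein, was at 0.645 and 0.594 against 0.270 CPM. None of these had an edgeR adjusted p below 0.739.

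Receptors for soluble agonists and the thromboxane enzymes had 8 of 12 genes negative (median −0.51). Below both doe-milk libraries lay 7 and above both 3, against 33.2% and 34.4% of all genes. Thromboxane synthase *TBXAS1* stood at 63.9 and 67.3 against 38.8 CPM (difference −0.87 on the log2 scale, SE 0.21), the thrombin receptor *F2R* at 111 and 110 against 82.7 CPM (−0.53, SE 0.20) and another thrombin receptor, *F2RL3*, at 10.5 and 14.9 against 7.63 CPM. The cyclooxygenase *PTGS1* was at 6.43 and 3.11 against 2.64 CPM. Monocytes share several of these genes, *TBXAS1* among them.

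Of the signalling genes, 8 of 12 were negative (median −0.44, and −0.28 without Doe-1). *GNG11*, a G protein γ subunit abundant in platelets, had 1831 and 2077 CPM under doe milk and 748 CPM in Repl-1. The groups lay far apart, though edgeR did not call the gene (log2 fold change −1.50, SE 0.21, adjusted p = 0.274). DESeq2 called it (adjusted p = 1.41e-05), and so did edgeR with no filter on low counts (adjusted p = 0.00303). *RGS18*, a brake on G protein signalling in platelets, was at 116 and 77.7 against 52.3 CPM, its relative *RGS10* at 85.6 and 78.6 against 58.3 CPM, and pleckstrin (*PLEK*), a kinase substrate shared with leukocytes, at 455 and 433 against 324 CPM.

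Megakaryocyte transcription factors and the thrombopoietin receptor had 7 of 10 genes negative (median −0.18, and −0.071 with plain CPM). *NFE2*, which drives platelet release, stood at 51.7 and 40.0 against 34.3 CPM, *GFI1B* at 13.3 and 14.5 against 10.3 CPM, *MEIS1* at 3.35 and 2.26 against 1.43 CPM and *FLI1*, which lymphocytes also express, at 185 and 198 against 232 CPM. In the cytoskeleton list 7 of 13 were negative (median −0.041, with 0.069 in plain CPM, −0.12 without Doe-1 and −0.11 without Doe-2). The myosin light chain *MYL9* was at 480 and 609 against 419 CPM, its kinase *MYLK* at 8.57 and 27.1 against 5.82 CPM and tropomyosin 4 (*TPM4*) at 262 and 166 against 129 CPM, while the actin cross-linker *ACTN1* stood at 136 and 164 against 225 CPM. For both lists the edgeR adjusted p was 0.921 or more for each named gene.

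**Figure D3:**
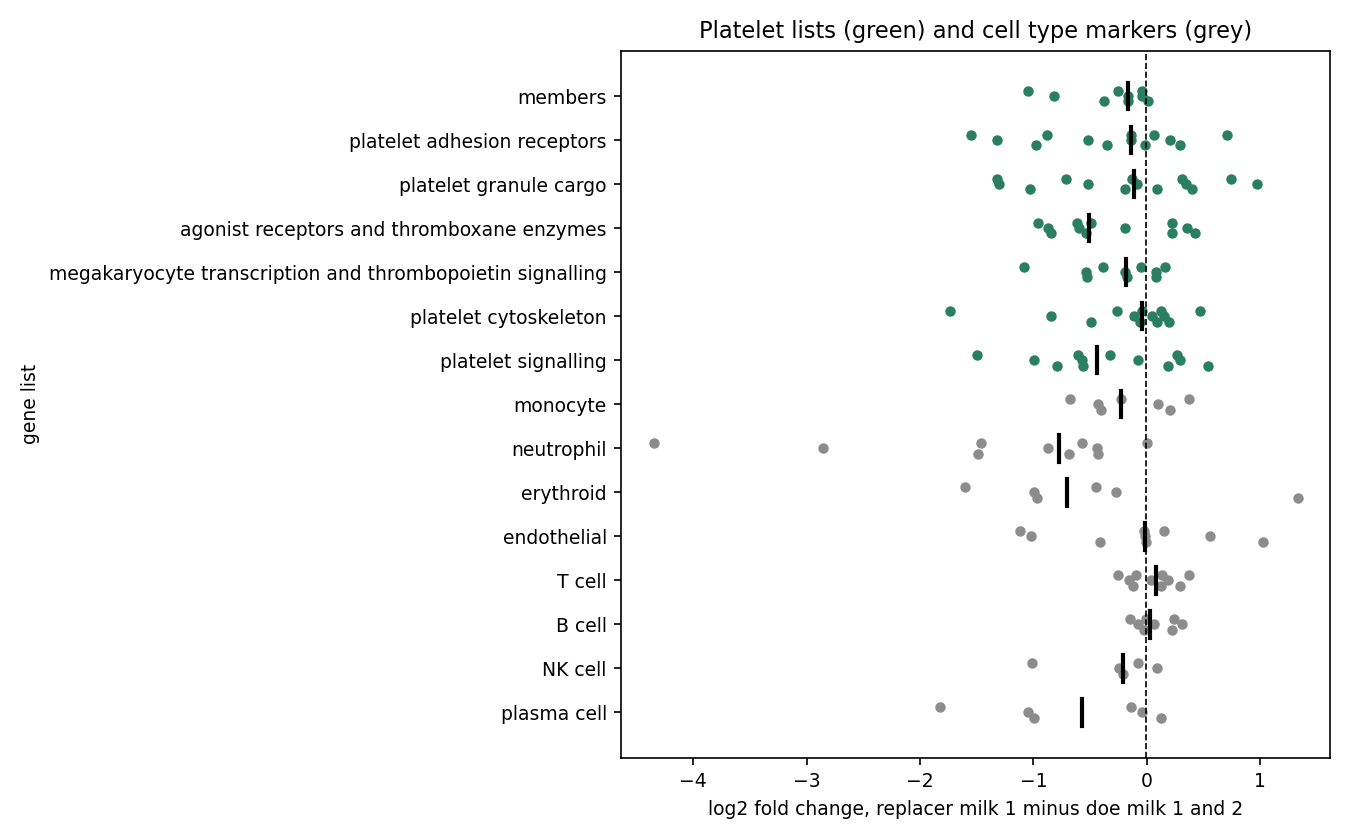
log2 fold change of Repl-1 minus Doe-1 and Doe-2 (x axis) for the tested genes of each list (y axis). Each point is 1 gene, black bars are list medians, the dashed line is the median of all genes tested (−0.0057), green marks platelet lists and grey markers of other cells. The member median is −0.17 and the neutrophil median −0.78, and T and B cell medians lie at 0.081 and 0.026.

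Markers of other cells in the same 3 libraries differed in level as well. Neutrophil markers, 10 of 11 in the table, summed to 863 and 469 CPM in doe milk against 316 CPM in Repl-1 (median −0.78). Of the 10, 7 lay below both doe-milk libraries and 0 above, where 33.2% and 34.4% of all genes did. *CXCR2* stood at 163 and 58.8 against 16.6 CPM and *S100A9* at 206 and 157 against 107 CPM. Erythroid markers, 7 of 12 in the table, summed to 1626 and 1805 against 621 CPM. Most of that sum was the globin *HBBC*, with 1619 and 1794 against 607 CPM. Of the 6 tested, 4 lay below both doe-milk libraries and 1 above (median −0.71), against 33.2% and 34.4% of all genes. The exception above both was *ALAS2*, whose CPM was 9.62 in Repl-1, 1.93 in Doe-1 and 5.12 in Doe-2 (log2 fold change 1.33). The erythroid median was −0.28 over genes with at least 1 CPM in every library and −0.45 with no filter. Plasma cell markers had a median of −0.57 (−0.37 without Doe-1 and −0.89 without Doe-2). Medians of 3 marker lists took either sign with the control left out: monocyte markers stood at −0.23 (0.029 without Doe-1, −0.44 without Doe-2), NK cell markers at −0.21 (−0.49 and 0.14) and endothelial markers at −0.020 (0.22 and −0.47). With plain CPM these were −0.12, −0.094 and 0.088, and the endothelial median was −0.14 over genes reaching 1 CPM in each library. T cells stood at 0.081 (0.19 with plain CPM) and B cells at 0.026 (0.14 with plain CPM, 0.083 without Doe-1 and 0.15 without Doe-2). Counts were few for the red cell genes *SLC4A1* (7 and 3 against 4 counts), *AHSP* (17 and 8 against 10) and *EPB42* (11 and 15 against 7). They were also few for the neutrophil genes *MMP8* (12 and 8 against 8) and *MPO* (5 and 42 against 16). The neutrophil elastase gene *ELANE* was low, at 3.50 and 1.45 against 0.964 CPM. Whether carry-over of other cells takes part in the *PPBP* and *TREML1* differences was not tested.

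In the span-proportional libraries the members ranged from 0.211 times (*GP6*) to 22.4 times (*TUBB1*) the level their genomic length gives. Counts per kb of gene span were set over the median of 12141 autosomal protein-coding genes of the same library, with spans from the RefSeq genes of the ARS1.2 assembly. *PPBP*, at 16, 16 and 19 counts in Doe-3, Repl-2 and Repl-3, was 1.03 to 1.25 times that median, where the transcript-like libraries had 147 to 295 times theirs. *SELP* was 0.793 to 0.984 times the median, *F13A1* 1.25 to 1.48, *ITGB3* 1.58 to 1.87 and *TREML1* 1.77 to 2.31. *ITGA2B* lay below it at 0.393 to 0.732, and *GP6* was farthest below, at 0.227 and 0.211 in Repl-2 and Repl-3, though at 1.04 in Doe-3. Farthest above it stood *GP9*, at 3.496 to 6.61 times, and *TUBB1*, at 7.93 to 22.4 times. In the transcript-like libraries these were at 76.0 to 104 and 369 to 571 times.

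**Figure D4:**
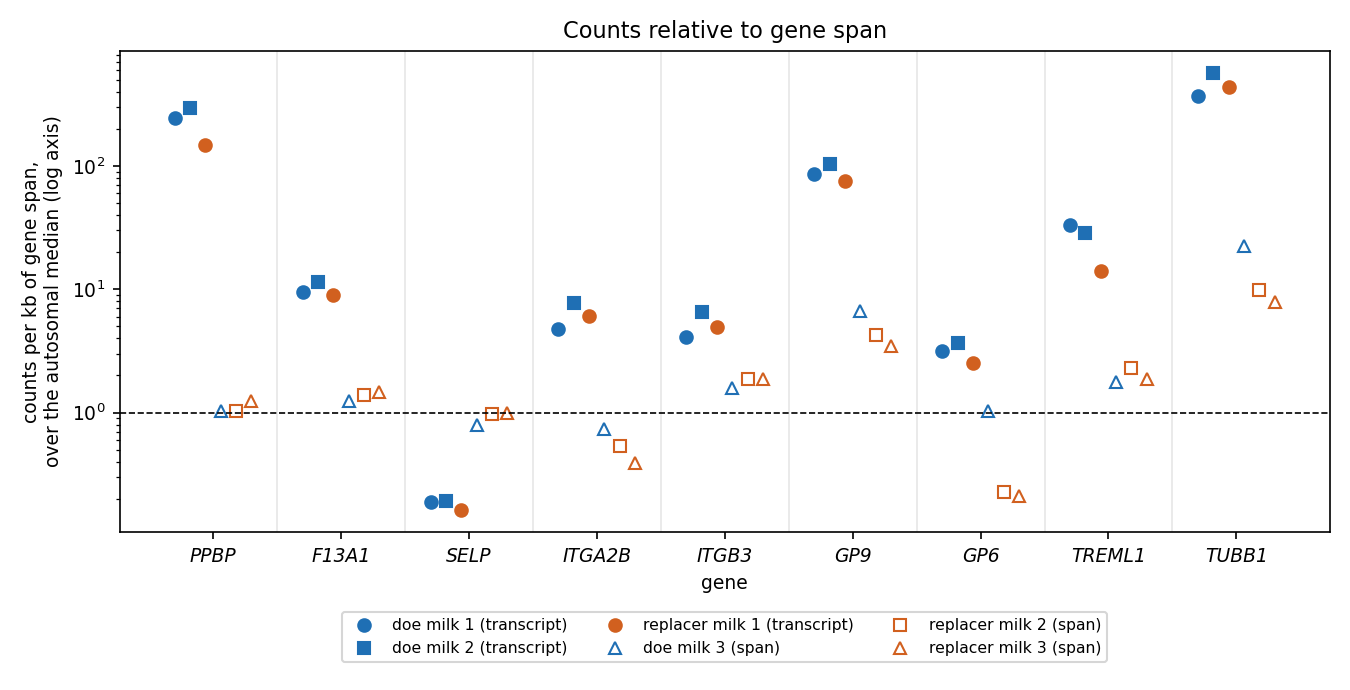
Counts per kb of gene span over the autosomal median of the same library (log axis), for each platelet gene and library. Symbols are as in the plot of CPM by library, and the dashed line is 1, the autosomal median. Open symbols (span-proportional libraries) gather near the line for *PPBP*, *SELP* and *F13A1* and stand above it for *TUBB1*, where Doe-3 reaches 22.4.

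*SELP* was the member that differed most in the other direction. It stood at 1.75, 1.85 and 1.73 CPM in the transcript-like libraries and at 27.4, 30.6 and 31.2 CPM in the span-proportional ones, 16.7 times higher on average. The endothelial markers did likewise, summing to 13.5 to 17.3 CPM in the former and 457 to 625 CPM in the latter. This direction is not particular to them, as 57.9% of the 23612 genes with any count were lower in all 3 transcript-like libraries. The B cell gene *PAX5* was one, at 34.7 to 49.6 against 111 to 246 CPM. *PPBP* was 62.1 times higher in the transcript-like libraries, *TUBB1* 10.2 times, *GP9* 5.51 times, *TREML1* 3.78 times, *ITGA2B* 3.36 times and *F13A1* 2.20 times. *ITGB3* overlapped, at 50.1 to 81.5 against 71.6 to 77.7 CPM.

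Within the span-proportional libraries, *GP6* and *TUBB1* were higher in Doe-3 than in Repl-2 and Repl-3. *GP6* stood at 8.47 CPM against 1.70 and 1.57 CPM, and *TUBB1* at 91.8 against 36.9 and 29.7 CPM. *GP9* stood at 7.11 against 4.17 and 3.45 CPM and *ITGA2B* at 8.15 against 5.46 and 4.01 CPM, also with replacer milk lower. *ITGB3* was at 71.6 against 77.0 and 77.7 CPM and *F13A1* at 129 against 131 and 140 CPM, slightly higher with replacer milk. *TREML1*, at 5.99 against 7.15 and 5.84 CPM, and *PPBP*, at 0.639 against 0.590 and 0.712 CPM, straddled the doe-milk value.

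After TMM scaling of these 3 libraries, 4 of 9 members lay below the control in both replacer-milk libraries, where 48.3% of all genes did. The other 5 lay above it, where 46.3% did. Log2 fold changes were −2.13 for *GP6*, −1.22 for *TUBB1*, −0.66 for *GP9* and −0.54 for *ITGA2B*. The fit to these libraries gave 0.41 for *SELP*, 0.35 for *ITGB3* and 0.31 for *F13A1*. It called 73.2% of all genes tested. Repl-2 and Repl-3 are nearly alike, with a chi-square of 2.80 over each degree of freedom against 368 and 363 when Doe-3 is set beside them, so these p-values measure the small spread between that pair and the control is 1 library. For *PPBP* and *TREML1*, the members lowest in Repl-1, the log2 fold changes here were 0.26 (SE 0.68) and 0.36 (SE 0.22), and neither was called (edgeR adjusted p = 0.736 and 0.138).

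Over all 6 libraries no platelet gene passed the test between the feeds. The edgeR fit called 0 of 21431 genes (0%), its smallest adjusted p was 0.987, and 123 genes had an unadjusted p below 0.05, none of the members among them. The members had log2 fold changes from −1.79 (SE 2.25) for *PPBP* to 1.02 (SE 1.20) for *SELP*, with a median of −1.003. DESeq2 called 1 gene, *TNNC2*, a troponin of skeletal muscle named after its value was seen, and limma voom 0. Each feed holds both kinds of library, and the spread within a feed was wide. *TUBB1* ran from 91.8 to 648 CPM in doe milk and from 29.7 to 555 CPM in replacer milk, and *PPBP* from 0.639 to 51.0 and from 0.590 to 28.3 CPM. With Repl-2 and Repl-3 summed as 1 library, an alternative chosen after seeing the data, edgeR again called 0 genes and 0 members. With the library kind as a term, 0 members passed and the fit called LOC108637881 alone.

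*GP6* was the single member whose plain CPM did not overlap between the feeds. It stood at 6.97, 8.23 and 8.47 CPM in Doe-1, Doe-2 and Doe-3 and at 6.34, 1.70 and 1.57 CPM in Repl-1, Repl-2 and Repl-3. Of all genes tested, 1.18% lay below every doe-milk library in plain CPM. After TMM scaling over all 6 libraries the groups overlapped for *GP6* and for each other member, where 1.08% of genes lay below and 1.89% above (log2 fold change −1.34, edgeR adjusted p = 0.987, SE 1.13).

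Across the 6 libraries, the members' mean profile of log2 CPM was followed most closely by *GP9* (Pearson r = 0.997) and *TUBB1* (0.994), and *SELP* (−0.963) and *ITGB3* (−0.353) ran against it. These are descriptions over 6 points that share 2 library kinds. Of 16032 other genes with a symbol, the 5 most like that profile were *GSTM3* (r = 0.999), *PIK3R5* (0.998), *CNTD1* (0.997), *NUCB2* (0.997) and *ABHD12* (0.996), and 102 genes had an r above 0.99. *GSTM3*, a glutathione transferase, stood at 80.2, 210 and 4.08 CPM in Doe-1, Doe-2 and Doe-3 and at 56.2, 0.774 and 0.637 CPM in Repl-1, Repl-2 and Repl-3.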

How the data were processed

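Per the labels' protocols, TRIzol served for the RNA and an NEBNext Ultra II kit for the libraries. The deposited table holds raw counts of each gene in 6 libraries. Per the submitters' processing notes the tools included fastp 0.22.0, STAR 2.7.10a and featureCounts 2.0.0; the sources used here name no strand setting, build or annotation, so overlapping and near-identical genes can share reads, and no coordinates are printed. Rows naming no gene numbered 0. Columns were matched to samples by description, groups and replicate numbers by title.

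The members, gene lists and the comparison within transcript-like libraries were chosen with earlier results of these data known. The kind of each library was also taken from those earlier results, and was checked here against gene spans. Gene spans came from the RefSeq gene table of ARS1.2 and covered 92.7% of genes. CPM divides by the library total. Feeds were compared in R 4.3.3 with edgeR 4.0.16, by its quasi-likelihood test with robust dispersions, after filterByExpr and TMM scaling, two-sided, replacer milk minus doe milk, called at an adjusted p below 0.05. Standard errors are the fold change over the square root of F. Intervals are exact binomial ones at 95%. Among genes with 2 to 9 counts, the share with an even count was 61.2% to 66.9% by library, so counts may not be single independent reads and the intervals may be too narrow. Whether samples came from separate animals is known only from the word biological in the titles, and p-values measure the spread between these samples.

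Every member was described. For the other lists, up to 4 tested genes with the smallest p in the transcript-like libraries were named, apart from a granule cargo gene that is not reported here. Likeness was Pearson's r of log2 CPM (prior count 2) with the mean centred profile of the members, over genes passing the filter. Alternatives were RLE, upper quartile and no scaling, other filters, DESeq2 1.42.0, limma voom 3.58.1, dispersions not robust, each library left out, the replicate number or library kind as a term, and, added after seeing the data, Repl-2 and Repl-3 summed. The tests were tested on simulated data drawn at the real means. The biological variation was set to 27.7%, as measured in the transcript-like libraries with 1 residual degree of freedom. There edgeR recovered 6% of genes changed 2-fold and 56% of genes changed 4-fold, over 17144 genes. Over all 6 libraries, with 21899 genes, it recovered 0% of both. That simulation also used 27.7%, whereas the fit to all 6 libraries measured 131%, so it does not represent that fit's own variation.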

Additional observations from a re-analysis of the deposited data

How the results depend on the processing

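In the transcript-like libraries, 0 members were called under each alternative with a test. The number of all genes called was 5 with RLE or upper quartile scaling, 90 with no filter, 0 with at least 1 CPM in every library, 148 with DESeq2, 0 with limma voom and 1 with dispersions not robust, against 3. The median log2 fold change of the members moved from −0.17 to −0.054 with plain CPM and ran from −0.36 to −0.093 with a doe-milk library left out. Members below the remaining doe-milk library then ran from 5 to 9 and members above from 0 to 4. Of all genes tested, 50.4% were higher in Repl-1 than in Doe-1 and 50.7% than in Doe-2. With plain CPM *ITGB3* (0.070), *TUBB1* (0.073) and *NCR1* (0.032) turned positive. These genes had opposite signs without Doe-1 and without Doe-2, with the values in that order: *ITGA2B* (−0.32 and 0.44), *ITGB3* (−0.36 and 0.35), *TUBB1* (−0.34 and 0.34), *F13A1* (−0.32 and 0.0055), *CD68* (0.064 and −0.76), *LEF1* (−0.047 and 0.32), *NKG7* (−0.43 and 0.052), *GNLY* (−0.56 and 0.14) and *NCR1* (−0.49 and 0.48). *PPBP*, *TREML1*, *GP9*, *GP6* and *SELP* kept a negative sign in all of these. The globin *HBBC* and *CSF3R* were called with DESeq2 (adjusted p = 1.53e-06 and 0.0344), *HBBC* also with no filter. The cause of these changes was not tested, apart from the smaller number of samples when a library was left out.

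Over all 6 libraries, 0 members were called under each alternative. All genes called numbered 1 with DESeq2 and 1 with library kind as a term, against 0. With at least 1 CPM in every library 1 member lay below every doe-milk library. With single libraries left out the members' median ran from −2.79 to −0.30, members below every doe-milk library from 0 to 4 and members above from 0 to 1. *ITGB3* turned positive at 0.17 with at least 1 CPM in every library, 0.19 without Doe-2 (−0.65 without Repl-1) and 0.12 with library kind as a term, where *F13A1* stood at 0.040. Deviations from the feed means correlated at 0.890, −0.881 and 0.917 for same-numbered libraries 1, 2 and 3. These signs followed the library kind, and Doe-2 with Repl-1, both transcript-like, had 0.887. The correlations therefore cannot tell whether same-numbered libraries were paired. With the replicate number as a block, 0 genes and 0 members were called, as without it.

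Within the span-proportional libraries the members' median was −0.18 with at least 1 CPM in every library, where *PPBP* was not tested, against 0.26, and ran from 0.12 to 0.20 with a replacer-milk library left out. The edgeR fit had called *ITGA2B* and *GP9*. DESeq2 called neither, and edgeR with no filter did not call *ITGA2B*. Leaving out a library of either kind's 3 leaves 1 against 1, a value with no test, and the single control or test library could not be left out. Depth limited *PPBP* in the span-proportional libraries, at 16 to 19 counts, and *SELP* in the transcript-like ones, at 84 to 106 counts.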

Other observations

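Platelet genes outside the members included some of the most counted ones, and they went different ways in Repl-1. Their values were seen before they were chosen. Thrombospondin 1 (*THBS1*), an α-granule protein that binds integrins and collagen and is also made by monocytes, stood at 239 and 427 CPM in Doe-1 and Doe-2 and at 473 CPM in Repl-1, above both (log2 fold change 0.39, SE 0.40, edgeR adjusted p = 0.979). *GP1BB*, another subunit of the complex that holds *GP9*, stood at 140 and 184 against 137 CPM (−0.35, SE 0.24, adjusted p = 0.979). Von Willebrand factor (*VWF*), carried in platelet granules, spread more between the doe-milk libraries than any feed difference, at 32.9 and 142 against 83.0 CPM. *GATA1*, the transcription factor of the megakaryocyte and red cell lineages, was at 15.1 and 13.01 against 13.5 CPM.

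In the ARS1.2 gene order the neighbour of *PPBP* on one side is LOC102181854, a protein-coding gene without a symbol in these tables. It stood at 6286 and 5963 CPM in Doe-1 and Doe-2 and at 3924 CPM in Repl-1, with 13, 9 and 2 counts in Doe-3, Repl-2 and Repl-3. Like *PPBP* it was lowest in Repl-1 among the transcript-like libraries. LOC102182115, a little farther on, was level at 296 and 315 against 297 CPM. The chemokine *CXCL8*, on the other side, was at 855 and 222 against 380 CPM.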
